A study of Mus musculus with 8 samples.

Results

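A set of 10 genes, encoding ligands of the TGFβ and activin branch and the latent TGFβ binding proteins, was followed in mice that lack *Lrig1*. The genes were chosen by name as *Tgfb1*, *Tgfb2*, *Tgfb3*, *Ltbp1*, *Ltbp3*, *Ltbp4*, *Inhba*, *Inhbb*, *Gdf11* and *Gdf10*, 10 of the 54307 genes in the table of estimated counts, and all 10 passed the filter on low counts. The tissue contains the V-SVZ, the neurogenic zone along the lateral ventricle, and was dissected at 8 weeks of age from 1 hemisphere of each mouse, on the 129-Elite strain background (129 in the labels). The KO group held 4 mice, of which 2 were females, and the WT group held 4, of which 3 were females. KO mice are homozygous for CreERT2 inserted into exon 1 of *Lrig1*, a constitutive loss of the gene in every cell type, and WT mice are littermates with 2 wild-type alleles. The labels name no drug treatment.

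Ligands of this branch are secreted dimers that bring type I and type II serine/threonine kinase receptors together, after which SMAD2 and SMAD3 are phosphorylated and enter the nucleus with SMAD4. The 3 TGFβ ligands leave the cell wrapped in their own propeptide, which holds them inactive, and latent TGFβ binding proteins (LTBPs) tie this complex to the extracellular matrix. Integrins can release TGFβ1 and TGFβ3 by pulling on an arginine-glycine-aspartate (RGD) motif in the propeptide. Activins are dimers of the inhibin β subunits and need no such release, and GDF11 is held by its own propeptide. In the adult V-SVZ, signalling by TGFβ is known as a brake on the proliferation of neural precursors.

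Sequences that separate the forms compared here were taken from Gencode M21 transcripts (GRCm38), whose lengths equalled those in the deposited files for 15 of 15 models. The first pair shows the in-frame RGD codons in capitals with 30 coding bases on each side, because this motif separates *Tgfb1* and *Tgfb3* from *Tgfb2* in how the ligand can be released.
Tgfb1-201: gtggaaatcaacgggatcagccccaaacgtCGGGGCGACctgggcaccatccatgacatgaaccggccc
Tgfb3-201: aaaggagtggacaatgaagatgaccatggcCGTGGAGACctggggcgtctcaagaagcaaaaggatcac
The motif searched was CGN, AGA or AGG followed by GGN and then by GAC or GAT, in frame and on the coding strand. It starts at codon 244 of *Tgfb1* (chromosome 7, plus strand) and at codon 261 of *Tgfb3* (chromosome 12, minus strand). No match was found in the coding sequence of *Tgfb2-201* or *Tgfb2-206* (chromosome 1, minus strand). Of 21584 protein-coding genes with a complete coding sequence, 7.41% held such codons.

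*Tgfb2* has a second coding form. *Tgfb2-206* carries an 84-base exon, its exon 2, which adds 28 codons from codon 116 within the propeptide and is absent from *Tgfb2-201*. It is shown in capitals with 15 coding bases on each side.
Tgfb2-206: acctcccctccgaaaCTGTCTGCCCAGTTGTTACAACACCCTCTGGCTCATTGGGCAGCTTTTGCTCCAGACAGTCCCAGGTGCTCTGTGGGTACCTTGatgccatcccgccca

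*Ltbp4* (chromosome 7, minus strand) and *Ltbp1* (chromosome 17, plus strand) are each transcribed as a long and a short form from separate start sites, so that the forms begin with different coding bases. The first 60 coding bases of each are given with the start codon in capitals, since they are what tells the forms apart.
Ltbp4-201, long: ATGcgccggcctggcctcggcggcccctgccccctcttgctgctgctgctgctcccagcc
Ltbp4-205, short: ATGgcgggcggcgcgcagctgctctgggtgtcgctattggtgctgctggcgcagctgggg
Ltbp1-201, long: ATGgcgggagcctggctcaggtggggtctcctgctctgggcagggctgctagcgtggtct
Ltbp1-203, short: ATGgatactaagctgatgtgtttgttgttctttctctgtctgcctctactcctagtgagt
For *Ltbp4* 448 coding bases are in the long form alone and 250 in the short form alone. For *Ltbp1* these are 1009 and 55 bases.

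Depth was 47887437 to 61826150 estimated counts in WT and 52664769 to 74482334 in KO. *Lrig1* itself was 33.7 ± 14.2 CPM (counts scaled to the depth of each mouse after TMM normalization, SD, n = 4) in WT and 2.42 ± 1.40 in KO (SD, n = 4), and every KO mouse lay below every WT mouse. Its log2 fold change was -3.80 (SE 0.52, adjusted p = 0.286 in edgeR's quasi-likelihood test, adjusted by Benjamini-Hochberg over 17669 genes). This test thus did not call even the targeted gene at an adjusted p under 0.1, so a gene it does not call may still differ. In the paper's DESeq2 comparison, *Lrig1* was the lowered gene with the strongest significance. Sex-linked genes gave the labelled sex in 8 of 8 mice. Neuronal markers differed widely between mice of a group. The summed CPM of 6 cortical excitatory neuron markers ran from 66.1 to 1722 in WT, with the highest value in WT replicate 2, and from 13.9 to 818 in KO. That of 6 striatal medium spiny neuron markers ran from 1758 to 5650 in WT and from 2880 to 4673 in KO. For the cortical sum, each male (1722 in WT replicate 2, 447 and 818 in KO replicates 1 and 3) lay above every female (13.9 to 327). The cortical sum and sex thus went together in these mice, and their parts cannot be fully told apart. The part of these markers in the results below was not tested, except where a fit with the cortical sum is given.

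Levels of the 10 genes were first set side by side per transcript length, as TPM, a transcript share scaled by length, summed over the transcripts of each gene. *Ltbp3* and *Ltbp4* stood at the top and *Ltbp1*, *Gdf10* and *Inhbb* at the bottom, a 4.76-fold span between the highest and the lowest mean. *Ltbp3*, which is needed for latent TGFβ in bone and other tissues, was at 8.54 ± 2.48 TPM (SD, n = 8), and *Ltbp4*, an LTBP of elastic fibres, at 7.96 ± 1.89. For comparison, the median of the 17647 tested genes with a TPM value was 7.81, so the other 8 genes lay below the middle of the tested genes.

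*Gdf11*, a ligand close to myostatin, followed at 5.71 ± 1.22 TPM and *Inhba*, the activin βA subunit, at 5.56 ± 1.07. The 3 TGFβ ligands came next and close together. *Tgfb1* was at 4.47 ± 0.93 TPM, *Tgfb3* at 4.15 ± 0.60 and *Tgfb2* at 4.15 ± 0.73. The lowest 3 were *Ltbp1* at 1.97 ± 0.66, *Gdf10*, a ligand related to BMP3, at 1.83 ± 0.45, and *Inhbb* at 1.80 ± 0.45 (each SD, n = 8).

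Only some steps of this order held from mouse to mouse. *Tgfb2* was above *Ltbp1* in 8 of 8 mice, *Ltbp4* was above *Gdf11* in 7 and *Inhba* was above *Tgfb1* in 7. Between *Ltbp3* and *Ltbp4*, *Gdf11* and *Inhba*, *Tgfb3* and *Tgfb2*, *Ltbp1* and *Gdf10*, and *Gdf10* and *Inhbb*, the higher-ranked gene was above in 4 of 8 mice, so these neighbours did not differ beyond their spread. *Tgfb1* was above *Tgfb3* in 5 of 8 mice. With protein-coding transcripts alone, a choice made after seeing the data, *Ltbp4* (7.92 TPM) passed *Ltbp3* (7.64 TPM), and *Ltbp1* (1.34 TPM) became the lowest of the 10.

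**Figure D1:**
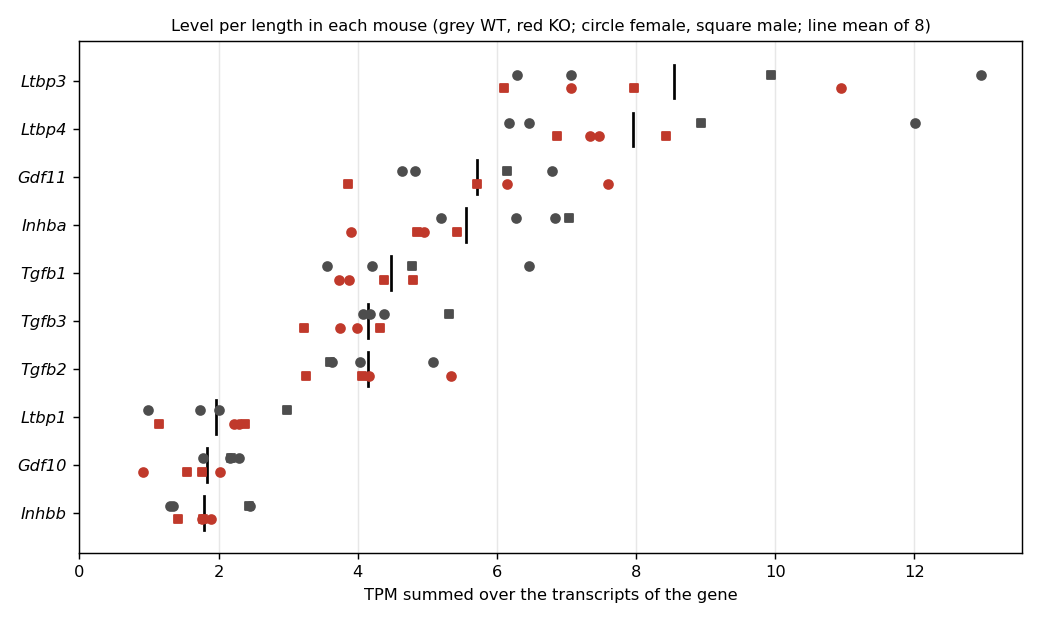
TPM of each gene (horizontal axis, summed over its transcripts) in each of 8 mice, WT in grey above and KO in red below, with the mean of 8 mice as a vertical line. *Ltbp3* and *Ltbp4* had the highest means, 8.54 and 7.96 TPM, and *Ltbp1*, *Gdf10* and *Inhbb* all had means below 2 TPM.

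As a share of the summed TPM of the TGFβ ligands, *Tgfb1*, *Tgfb2* and *Tgfb3* took 34.9% ± 4.5, 32.5% ± 4.4 and 32.6% ± 4.0 (SD, n = 8), so the 3 ligand messages were present in about equal amounts. Among the LTBPs the share of *Ltbp3* was 46.0% ± 4.1, that of *Ltbp4* 43.4% ± 3.8 and that of *Ltbp1* 10.7% ± 2.8. These shares and the ratios below count all transcripts, not coding ones alone. On average 25.6% of *Ltbp1* TPM came from *Ltbp1-207*, a processed transcript with 5.98 estimated reads a mouse. LTBP messages exceeded ligand messages in every mouse. Their ratio was 1.43 ± 0.27 in WT and 1.43 ± 0.11 in KO (SD, n = 4), with a range of 1.18 to 1.73 over the 8 mice. *Inhba* stood at 3.63 ± 1.14 TPM per TPM of *Inhbb* in WT and at 2.85 ± 0.68 in KO (SD, n = 4), and the groups overlapped.

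To ask whether loss of *Lrig1* changed these messages, KO was compared with WT in TMM-normalized CPM. At an adjusted p under 0.1, 0 of the 10 genes differed, where 1 of the 17669 genes tested did (0.00566%), the predicted gene *Gm43079*, which is not among the 10. Before adjustment, a p under 0.05 was reached by 0 of the 10, against 1.88% of all genes tested, and the 4 KO mice did not lie apart from the 4 WT mice for any of the 10, against 1.53% of all genes. With sex as a covariate 0 of the 10 reached an unadjusted p under 0.05, against 6.95% of all genes, and this was also 0 in females alone, against 5.31%, and with the cortical marker sum as a covariate, against 1.78%. DESeq2 also called 0 of the 10, as did DESeq2 with sex as a covariate, which called 0.669% of all genes. The log2 fold change was below 0 for 8 of the 10 genes and 50.3% of all genes. The median was -0.09 over the 10 and -0.00094 over all genes. Every 95% interval contained 0 and stayed between -1 and 1 on the log2 scale. The adjusted p in edgeR was 0.9998 for each of the 10, so the gene accounts below give exact permutation tests of the group means of log2 CPM instead, 2-sided, for which 4 mice against 4 cannot give a p below 0.0286. In bulk tissue, fewer cells of a type and less message per cell cannot be told apart.

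**Figure D2:**
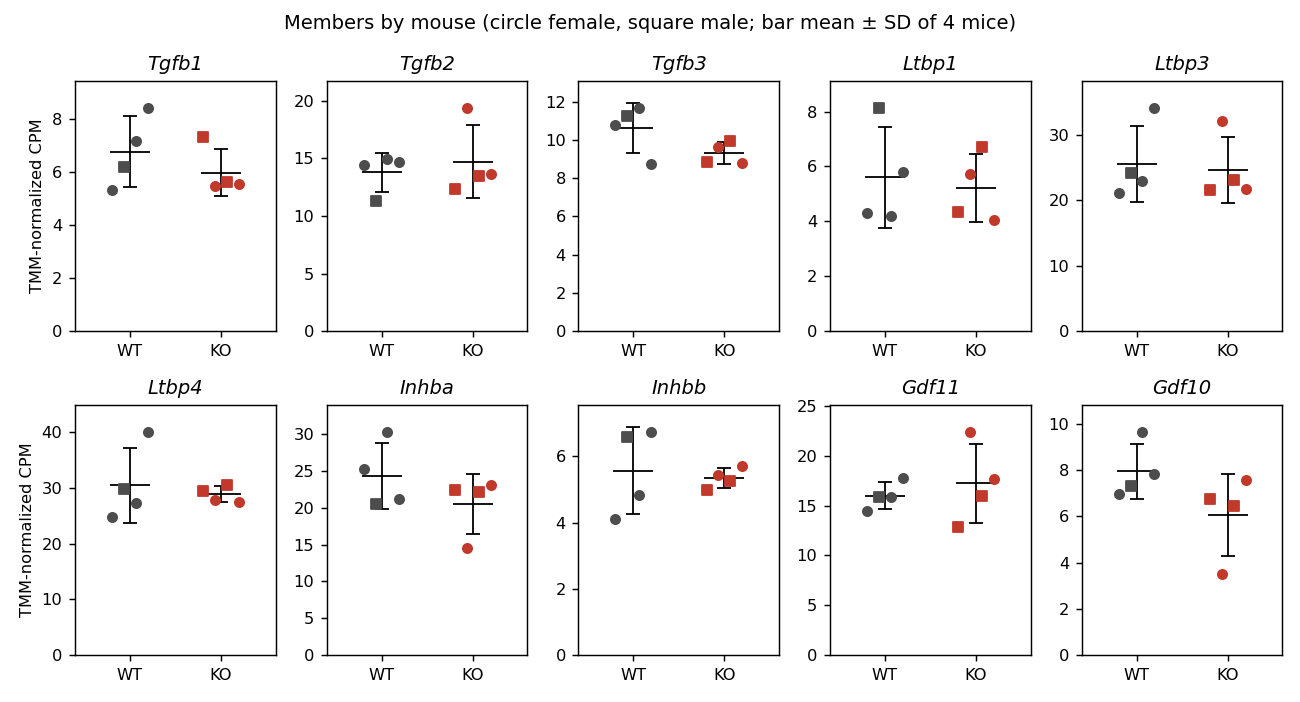
TMM-normalized CPM (vertical axes, each from 0) of the 10 genes in 4 WT and 4 KO mice, with circles for females, squares for males and bars for mean ± SD. The groups overlapped in all 10 panels, and the mean of KO was above that of WT for *Tgfb2* and *Gdf11* alone.

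*Tgfb1* (ENSMUSG00000002603.16), the ligand that microglia need for their adult identity, was at 5.33, 6.19, 7.16 and 8.42 CPM in WT replicates 1 to 4 and at 7.30, 5.48, 5.61 and 5.53 CPM in KO replicates 1 to 4. In KO, 3 mice sat close together and replicate 1 stood above them, inside the WT range. In edgeR the log2 fold change was -0.18 (SE 0.17, 95% interval -0.56 to 0.20, exact permutation p = 0.371). It was -0.06 without WT replicate 4, -0.28 without WT replicate 1, -0.29 without KO replicate 1 and -0.33 in females alone. The 9 microglia markers summed to 451 to 605 CPM in WT and to 434 to 547 CPM in KO. Of these, 8 had a log2 fold change below 0, 1 had an unadjusted p under 0.05 and none was at 0 in all mice. Their part in the values of *Tgfb1* was not tested.

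*Tgfb2* (ENSMUSG00000039239.15), a ligand made by astrocytes and neurons, was at 14.4, 11.3, 14.9 and 14.7 CPM in WT and at 12.4, 19.4, 13.5 and 13.6 CPM in KO. WT replicate 2 was the lowest mouse and KO replicate 2 the highest. Its log2 fold change was 0.09 (SE 0.16, interval -0.27 to 0.45, exact permutation p = 0.686), and it was -0.07 without KO replicate 2. It was 0.005 without WT replicate 2 and 0.007 with the cortical marker sum as a covariate, a fit chosen after seeing the data. It was 0.18 (SE 0.12) with sex as a covariate and 0.18 (SE 0.16) in females alone.

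*Tgfb3* (ENSMUSG00000021253.8), the third ligand, was at 10.8, 11.3, 11.7 and 8.75 CPM in WT and at 8.83, 9.65, 9.93 and 8.80 CPM in KO. All KO mice lay below 3 of the WT mice, and WT replicate 4 lay below every KO mouse. *Tgfb3* had the narrowest interval of the 10 genes, with a log2 fold change of -0.19 (SE 0.11, interval -0.44 to 0.06, exact permutation p = 0.171). Without WT replicate 4 it was -0.27 (SE 0.09, adjusted p = 1.0, edgeR). That fit was the only one of those leaving out a mouse in which 1 of the 10 had an unadjusted p under 0.05, as did 2.33% of all genes in it.

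Among the LTBPs, *Ltbp1* (ENSMUSG00000001870.17), which can bind all of the TGFβ ligands, was at 4.32, 8.13, 4.18 and 5.81 CPM in WT and at 4.34, 5.72, 6.69 and 4.05 CPM in KO. WT replicate 2, the male with the highest cortical marker sum, was the highest of the 8 mice. The log2 fold change was -0.11 (SE 0.25, interval -0.68 to 0.46, exact permutation p = 0.771), the widest interval of the 10. It was 0.12 without that mouse and 0.06 with the cortical marker sum as a covariate, a fit chosen after seeing the data. It was -0.18 (SE 0.22) with sex as a covariate and 0.04 (SE 0.23) in females alone. The 6 markers of fibroblasts and meninges, cells known to make LTBPs, summed to 10.7 to 30.8 CPM in WT, highest in the same mouse, and to 13.7 to 28.9 CPM in KO, and their part was not tested.

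*Ltbp3* (ENSMUSG00000024940.12) was at 21.0, 24.1, 22.9 and 34.1 CPM in WT and at 21.6, 32.0, 23.1 and 21.7 CPM in KO. A single mouse in each group, WT replicate 4 and KO replicate 2, stood well above the other three. KO over WT, the log2 fold change was -0.05 (SE 0.18, interval -0.47 to 0.36, exact permutation p = 0.657), with 0.12 without WT replicate 4 and -0.21 without KO replicate 2.

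*Ltbp4* (ENSMUSG00000040488.19) was at 24.7, 29.9, 27.2 and 40.1 CPM in WT and at 29.5, 27.8, 30.6 and 27.6 CPM in KO. The KO mice spanned a narrow part of the WT range. Its log2 fold change was -0.08 (SE 0.14, interval -0.40 to 0.24, exact permutation p = 0.857), and 0.08 without WT replicate 4.

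Of the activin subunits, *Inhba* (ENSMUSG00000041324.15), an activity-regulated gene in neurons, was at 25.3, 20.5, 30.4 and 21.3 CPM in WT and at 22.4, 14.5, 22.1 and 23.1 CPM in KO. KO replicate 2 was the lowest mouse and the other KO mice lay inside the WT range. Its log2 fold change was -0.25 (SE 0.18, interval -0.65 to 0.16, exact permutation p = 0.314), and it was -0.11 without KO replicate 2. *Inhbb* (ENSMUSG00000037035.6) was at 4.10, 6.60, 4.84 and 6.75 CPM in WT and at 4.98, 5.45, 5.25 and 5.71 CPM in KO. All KO mice fell between the lower and the higher pair of WT mice, and the log2 fold change was -0.06 (SE 0.17, interval -0.45 to 0.33, exact permutation p = 0.914).

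*Gdf11* (ENSMUSG00000025352.7) was at 14.5, 15.9, 15.8 and 17.8 CPM in WT and at 12.9, 22.4, 16.0 and 17.7 CPM in KO. The lowest and the highest mouse were both KO. Its log2 fold change was 0.11 (SE 0.16, interval -0.25 to 0.47, exact permutation p = 0.657), and -0.04 without KO replicate 2. With the cortical marker sum as a covariate it was 0.02. It was 0.16 (SE 0.14) with sex as a covariate and 0.33 (SE 0.15) in females alone.

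*Gdf10* (ENSMUSG00000021943.8) had the largest difference of the 10. It was at 6.98, 7.32, 9.68 and 7.85 CPM in WT and at 6.76, 3.50, 6.46 and 7.57 CPM in KO. In KO, 3 mice lay below all WT mice, with replicate 2 far below, and replicate 4 lay inside the WT range. For KO over WT the log2 fold change was -0.39 (SE 0.23, interval -0.91 to 0.13, exact permutation p = 0.114), so that KO was estimated at 53.3% to 109% of WT, and it was -0.20 without KO replicate 2. This p was the lowest of the 10. Ordered by unadjusted p in edgeR, *Gdf10* had rank 1242 among the 17669 genes, the best of the 10.

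**Figure D3:**
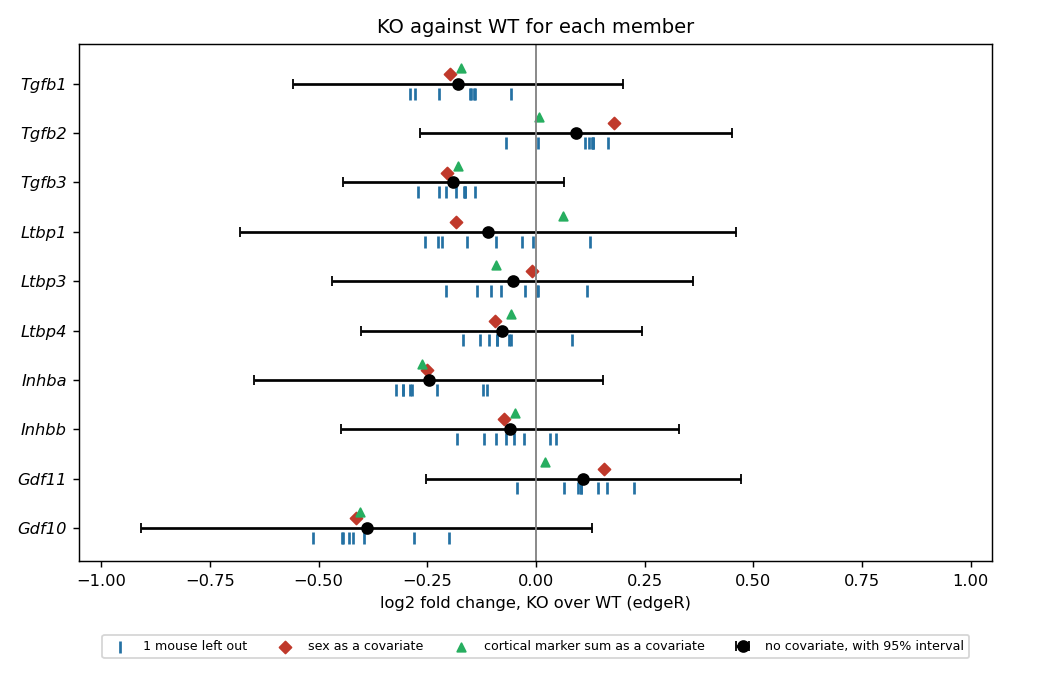
Log2 fold change of KO over WT (horizontal axis) for the 10 genes, as black points with 95% intervals, with the values after leaving out each mouse (blue ticks), with sex as a covariate (red) and with the cortical marker sum as a covariate (green). All 10 intervals contain 0, and the ticks stay on 1 side of 0 for *Tgfb1*, *Tgfb3*, *Inhba* and *Gdf10* alone.

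A few mice held most of the extreme values. WT replicate 4 was the highest of the 8 mice for *Tgfb1*, *Ltbp3*, *Ltbp4* and *Inhbb*, and the lowest for *Tgfb3*, while WT replicate 1 was the lowest for the first 4. KO replicate 2 was the highest for *Tgfb2* and *Gdf11* and the lowest for *Inhba* and *Gdf10*, and its mean absolute distance from the 8-mouse mean was 0.329 on the log2 scale, against 0.0886 to 0.241 in the other mice. The same mouse had the highest sums of ependymal markers (60.4 CPM, others 26.4 to 48.1) and neuroblast markers (176 CPM, others 112 to 161) and the lowest of oligodendrocyte markers (5592 CPM, others 6664 to 7236). The neuroblast markers did not all move alike in it. *Dlx1* (48.3 CPM, others 21.4 to 32.5), *Cd24a*, *Dlx2* and *Sp8* were at their highest. But *Dcx* was at its lowest (24.65 CPM, others 26.95 to 33.23), and *Sox11* (37.8 CPM) lay inside the range of the others. The part of these cell types in the values of KO replicate 2 was not tested.

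**Figure D4:**
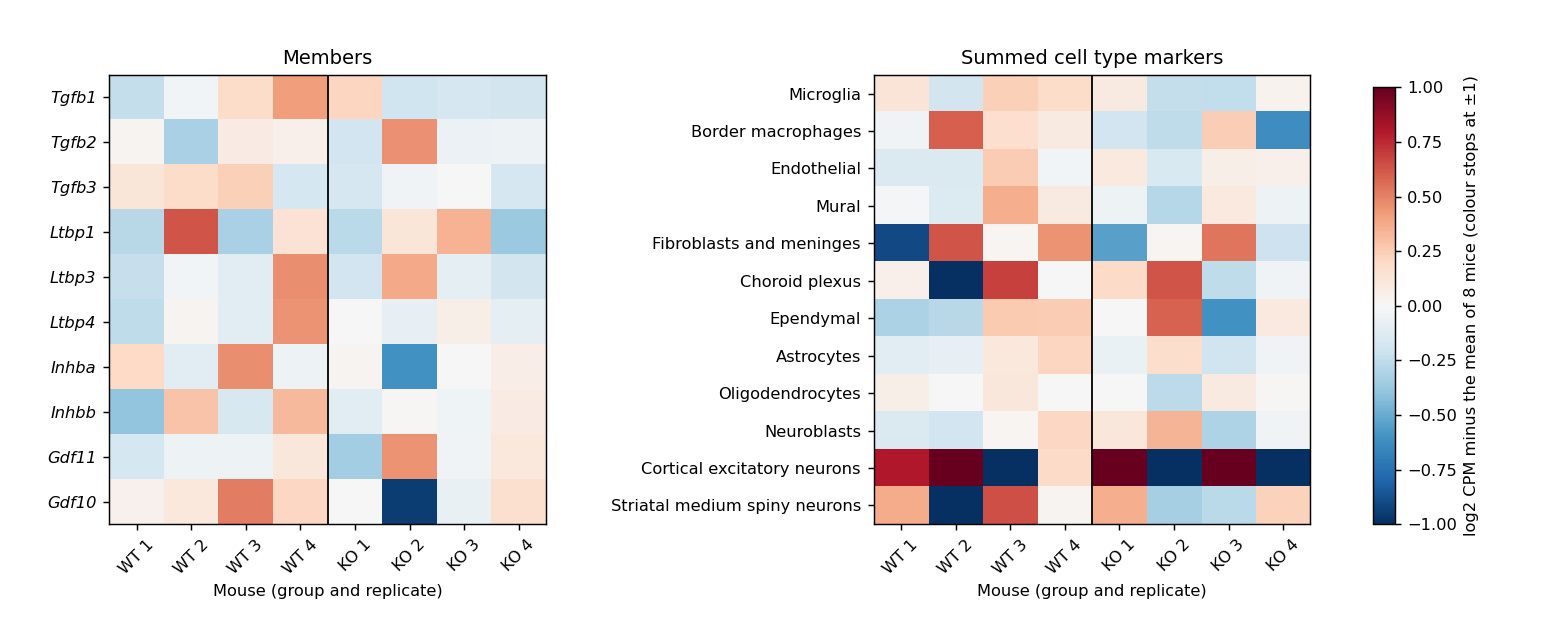
Log2 CPM minus the mean of 8 mice (colour, stopping at ±1) for the 10 genes on the left and for the summed markers of 12 cell types on the right, with WT left and KO right of the line in each panel. KO replicate 2 is far below the mean for *Inhba* and *Gdf10*, and the cortical excitatory row has the strongest colours.

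Of 72 markers tested over the 12 lists, 0 passed the adjusted threshold in edgeR and no marker was at 0 in all mice. An unadjusted p under 0.05 was found for 3 of them (4.17%, against 1.88% of all genes), 1 each for microglia, mural cells and astrocytes. All 6 mural markers had a log2 fold change below 0 (median -0.24), with sums of 127 to 179 CPM in WT and 114 to 149 CPM in KO. This was not particular to the mural list. All 6 markers were also below 0 for oligodendrocytes (median -0.095), striatal medium spiny neurons (-0.089) and cortical excitatory neurons (-0.85).

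Transcript forms were compared next. Of 48 transcripts listed for the 10 genes, 17 took at least 10% of their gene's TPM on average over the mice, and 14 were at 0 in every mouse. A different set of 17 passed the filter on low counts and was tested. It lacked *Ltbp1-207*, a processed transcript with 25.6% of *Ltbp1* TPM on average, and held *Ltbp3-202*, with 7.93% of *Ltbp3* TPM. Between KO and WT, 0 of the 17 transcripts of these genes that passed the filter on low counts were past the adjusted threshold, as were 0 of all 39966 transcripts (0%), and 0 of the 17 had an unadjusted p under 0.05, against 2.04% of all transcripts. This count was 1 or 2 in some alternative fits, where the adjusted p in edgeR was at least 0.818. It was 2 without WT replicate 4, with *Tgfb3-201* (log2 fold change -0.27) and *Ltbp4-205* (0.18), in a fit where 2.5% of all transcripts had an unadjusted p under 0.05. It was 1 with no filter (against 3.21% of all transcripts) and without WT replicate 3 (2.44%). It was also 1 when any 1 of the 4 KO mice was left out (1.78% to 2.78%). Each time it was *Ltbp1-206*, a transcript with a retained intron that did not pass the filter in the fit to all 8 mice. *Ltbp1-206* was at 0.215, 0.448, 0 and 0.118 TPM in WT and at 0 in each KO mouse. It had 12.05 estimated reads a mouse on average. Under a filter it passed through WT mice alone, so those p give no support for a difference. How reads were divided between overlapping transcripts is an estimate by Salmon whose error is not in these values.

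The short form dominated both genes that have 2 starts. The long form of *Ltbp4* was 6.81%, 23.4%, 17.7% and 5.28% of both forms in WT and 10.4%, 10.2%, 13.8% and 7.35% in KO, with a mean of 11.9% ± 6.2 (SD, n = 8). The long form of *Ltbp1* was 0%, 7.93%, 24.1% and 9.43% of its coding forms in WT and 19.4%, 28.2%, 22.6% and 19.3% in KO. All KO mice were above 3 of the WT mice, and WT replicate 3 lay among them. For the long transcript *Ltbp1-201* the log2 fold change was 1.11 (SE 0.98, interval -1.13 to 3.35, edgeR adjusted p = 1.0), from 63.2 estimated reads a mouse on average.

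The cassette form *Tgfb2-206* made up 9.08%, 14.7%, 9.85% and 8.77% of both *Tgfb2* coding forms in WT and 16.0%, 7.40%, 11.0% and 16.3% in KO, so most *Tgfb2* message lacked the exon printed above. Its log2 fold change was 0.34 (SE 0.25, interval -0.24 to 0.93, edgeR adjusted p = 1.0). *Inhba-202*, a short transcript of 1529 bases with the same coding sequence as *Inhba-201*, took 0%, 37.8%, 24.5% and 25.1% of *Inhba* TPM in WT and 29.3%, 28.0%, 0% and 0% in KO. It was estimated at 0 in 3 mice of both groups and at over 20% in the other 5.

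**Figure D5:**
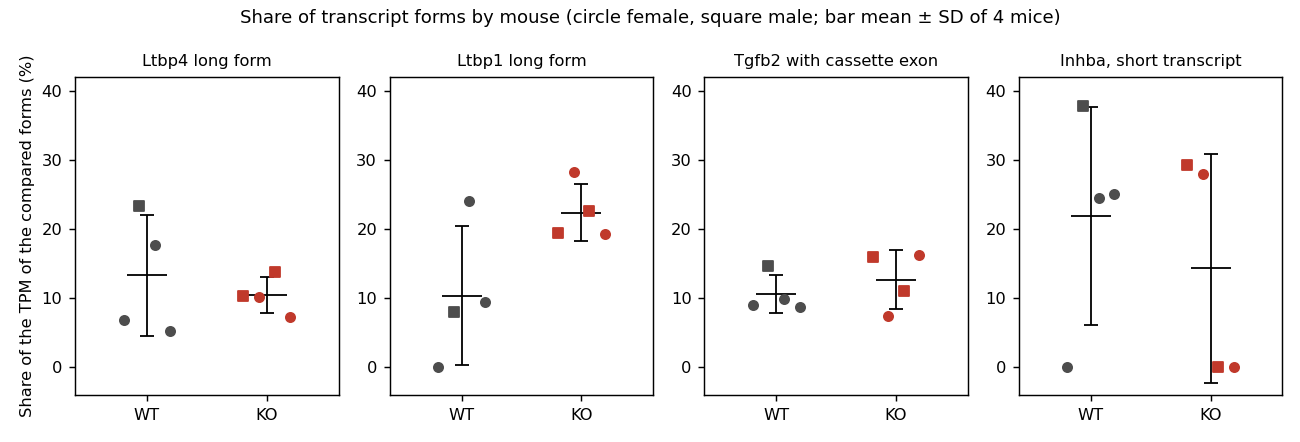
Share of the TPM of the compared forms (vertical axis, %) in 4 WT and 4 KO mice for the long forms of *Ltbp4* and *Ltbp1*, the *Tgfb2* form with the cassette exon and *Inhba-202*, with bars for mean ± SD. The groups overlap in all 4 panels, and *Inhba-202* is at 0 in 1 WT and 2 KO mice.

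The genes around these ligands were counted in 4 lists. Of 9 receptor genes, all tested, 0 passed the adjusted threshold or an unadjusted p under 0.05, and 6 had a log2 fold change below 0 (median -0.06). The smallest p among them was that of *Acvr2a*, a type II receptor for activins and GDF11, at 40.2 ± 5.6 CPM in WT and 48.9 ± 6.7 in KO (SD, n = 4), with a log2 fold change of 0.28 (SE 0.13, interval -0.0025 to 0.57, edgeR adjusted p = 0.9998).

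Of 22 genes for latency, activation and processing, 20 were tested, without *Ltbp2* and *Itgb6*, and 12 of these had values below 0 (median -0.04). *Furin*, the protease that cuts the propeptide from the ligand, had the smallest p, with a log2 fold change of -0.15 (SE 0.08, edgeR adjusted p = 0.9998). Of 18 inhibitors and co-factors, 13 were tested and 8 were below 0 (median -0.08), and the smallest p was that of *Bgn*, a matrix proteoglycan that binds TGFβ, at -0.27 (SE 0.18, edgeR adjusted p = 0.9998). Of 6 genes of the SMAD branch, 5 were below 0 (median -0.10), and *Smad7*, an inhibitory SMAD induced by TGFβ, had a log2 fold change of -0.13 (SE 0.11, edgeR adjusted p = 0.9998). In none of these 3 lists did a gene have an unadjusted p under 0.05.

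The genes whose log2 CPM followed each of the 10 most closely over the 8 mice were taken from 14443 genes. They are a description over 8 mice that differ in genotype, sex and cell type markers, and the part of these differences was not tested. *Tgfb1* was closest to *Necap2* (Pearson r = 0.987), *Tgfb2* to *Usp29* (0.967) and *Tgfb3* to *Gm4430* (0.922), which was the weakest best match of the 10. *Ltbp1* was closest to *Mrpl58* (0.989), *Ltbp3* to *Rin2* (0.971) and *Ltbp4* to *Lrrk1* (0.960), with *Tgfbi*, a matrix protein named for its induction by TGFβ, in second place (0.951). *Inhba* was closest to *Lrrk2* (0.980), *Inhbb* to *Frmpd1* (0.973) and *Gdf11* to *Limk2* (0.965). *Gdf10* was closest to *Casq2* (0.965), with the type I receptor gene *Acvr1* second (0.963). *Tgfbi* and *Acvr1* were named after their values were seen, and the second places of the other genes are not given.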

How the data were processed

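PolyA RNA of periventricular tissue from 8 mice was sequenced. The authors ran bcl2fastq 2.20 and Salmon against Gencode M29 (GRCm39), and deposited a gene table of estimated counts and, for transcripts of each mouse, estimated counts and TPM, all without further normalization. How transcripts were summed to genes is not given in the sources used here. The gene counts of the 10 genes equalled their transcript sums.

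Estimated counts were rounded. KO and WT were compared with edgeR 4.0.16 (R 4.3.3) using TMM, filterByExpr and a quasi-likelihood fit with genotype alone. P-values of 17669 genes were adjusted by Benjamini-Hochberg, with a threshold of 0.1. The SE is the size of the log2 fold change over the square root of F. Log2 CPM of single genes used a prior count of 2, except in the permutation tests, which had no prior count. Log2 values of summed markers had none either. Scripts were first tested on simulated data. The genes and lists were chosen with earlier results of these data known. All 10 are named, and in each context list the gene with the smallest p. *Gm43079*, *Tgfbi* and *Acvr1* were named after their values were seen.

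Gene names and transcript models came from Gencode M21 (GRCm38), which matched 97.4% of transcripts and at least 99.2% of reads, and 94.8% of gene identifiers had a name. No coordinates are given. Depth, as total counts, was 47887437 to 74482334 per mouse. The files do not hold the uncertainty of each estimate. Alternatives were DESeq2 1.42.0 or its size factors, other filters, sex, replicate number or the cortical marker sum as a covariate, females alone and each mouse left out, and for transcripts no filter, sex, replicate number and each mouse left out. Protein and staining data were not analysed here.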

Additional observations from a re-analysis of the deposited data

Results flagged for a closer look

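In 6 of 74 groups of 4 mice (8.11%), where chance gives about 1 in 20, a single mouse stood far from the other 3. For *Tgfb1*, KO replicate 1 was at 7.30 CPM and the next KO mouse at 5.61 CPM. For *Tgfb2*, WT replicate 2 was at 11.3 CPM and the next at 14.4 CPM. KO replicate 2 was flagged 3 times. It was at 32.0 CPM for *Ltbp3* (next 23.1), at 14.5 CPM for *Inhba* (next 22.1), and *Ltbp3* made up 53.4% of its LTBP TPM (next 43.2%). The cortical excitatory neuron markers summed to 1722 CPM in WT replicate 2 and to 327 CPM in the next WT mouse. These groups share mice and are not independent, and no cause was tested.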

How the results depend on the processing

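In 17 alternative fits at the gene level, 0 of the 10 genes passed an adjusted p of 0.1, and the lowest adjusted p of any of them was 0.806 (edgeR with sex as a covariate, *Tgfb3*). The number of all genes past that threshold, 1 in the fit reported, was 2 without a filter, 0 with at least 10 counts in every mouse, 2 with sex as a covariate, 12 with DESeq2, 201 with DESeq2 and sex, 3 in females alone and 2 with the cortical marker sum, and it ranged from 0 (without WT replicate 1) to 3 (without WT replicate 2) when 1 mouse was left out. Replicate numbers did not pair the mice: the correlation of same-numbered mice ran from -0.225 to 0.267, 1 of 4 WT mice was closest to the KO mouse of its own number, and the fit with the replicate block called 0 genes. The cause of these differences was not tested.

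The log2 fold change of *Tgfb1*, *Tgfb3*, *Inhba* and *Gdf10* kept its sign in every fit, but with 1 mouse left out it ranged from -0.289 to -0.0566, -0.271 to -0.141, -0.323 to -0.111 and -0.513 to -0.199, and in females alone it was -0.334, -0.168, -0.443 and -0.555. In females alone it turned to 0.0399 for *Ltbp1*, 0.0516 for *Ltbp3* and 0.0991 for *Inhbb*, and with the cortical marker sum to 0.0614 for *Ltbp1*. For the other 6 genes it ranged, with 1 mouse left out, from -0.0683 to 0.167 for *Tgfb2*, -0.255 to 0.124 for *Ltbp1*, -0.206 to 0.118 for *Ltbp3*, -0.167 to 0.0824 for *Ltbp4*, -0.18 to 0.0464 for *Inhbb* and -0.0431 to 0.226 for *Gdf11*. The number of the 10 with an unadjusted p under 0.05 then ranged from 0 to 1, the 1 being *Tgfb3* without WT replicate 4, and their median from -0.18 to -0.0051. Of the transcripts of the 10 genes, 0 passed the adjusted threshold in any of 11 alternative fits. The number with an unadjusted p under 0.05 was 0, 1 or 2, in fits where 1.71% to 4.29% of all transcripts had one. The smallest difference that 4 mice a group can show was not estimated.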

Other observations

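The short coding forms of *Ltbp1* came with and without a segment of 159 coding bases, present in *Ltbp1-203* and absent from *Ltbp1-202*. The form with the segment made up 79.5%, 53.0%, 84.5% and 45.2% of both short forms in WT and 64.1%, 65.7%, 49.6% and 18.8% in KO. It was lowest in KO replicate 4, and the groups overlapped.

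*Inhba* and *Gdf10* had the highest correlation of any pair among the 10 genes (Pearson r = 0.904 of log2 CPM over 8 mice that differ in genotype, sex and cell type markers). Both were lowest in KO replicate 2 and highest in WT replicate 3.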
